A study of Mus musculus with 3 samples.

Results

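The hemoglobin genes were followed through the suprarenal RNA-seq data of a murine model of dissecting abdominal aortic aneurysm (AAA). Every entry whose gene name contained Hba- or Hbb- was taken, which gave 4 of the 1238 different entries that the authors list over 3 comparisons. There were 2 α-globin entries, each naming both Hba-a1 and Hba-a2, and 2 β-globin entries, Hbb-b2 and Hbb-b1,Hbb-bs. An entry could be found only where the authors' unadjusted p-value was under 0.05, so the entries were in effect selected on their differences between libraries. Each such difference is given as a description and carries no test.

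Each of the 3 cohorts was 1 library of pooled total RNA, with equal amounts of RNA from its animals. All animals were apoE null (lacking apolipoprotein E, which leaves mice prone to hyperlipidemia) male mice of the C57BL/6 strain, 12 weeks old at surgery. The AngII AAA cohort was infused with angiotensin II (AngII, a peptide that raises blood pressure) and its dissecting aneurysms were collected within 24 hours of diagnosis. The AngII No AAA cohort received the same agent without forming an aneurysm and was collected on day 10, as was the Saline cohort, which received saline alone. Aneurysm status and day of collection therefore cannot be told apart, and because each cohort had 1 library, no difference below has a replicate check. Markers of the labelled tissue were present, since Lmod1, a leiomodin of smooth muscle cells, reached 115 FPKM in Saline, 82.1 FPKM in AngII No AAA, and 23.1 FPKM in AngII AAA once the libraries were on 1 scale.

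Hemoglobin is the oxygen carrier of red blood cells, built from 2 α-globin and 2 β-globin chains that each hold a heme. In adult mice the α chains come from the neighboring copies Hba-a1 and Hba-a2 and the β chains from a pair of adult genes in the β-globin cluster, whose names depend on the strain. The genes are transcribed in erythroid precursors of the marrow and spleen, and their messenger RNA is still carried by reticulocytes, the young red cells in blood, so that whole-tissue RNA that contains blood also contains globin RNA. Whether the aortas were flushed of blood is not given in the sources used here.

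The start regions of these genes are shown because both α-globin entries carry both gene names, and the sequences let a reader see how alike the copies are. Of the 5 gene symbols in the entries, 3 (Hba-a1, Hba-a2, and Hbb-bs) had a promoter in the RefSeq table of the GRCm38.p6 build. The 200 bases before each start site are printed from 5′ to 3′ on the strand of the gene, at chr11:32283472-32283671 for Hba-a1, at chr11:32296292-32296491 for Hba-a2, and on the minus strand at chr7:103827929-103828128 for Hbb-bs. Capitals mark every match, on either strand, to the CCAAT box, to the CACCC box, to the TATA box written as ATATAA, and to GATAAG, the letters that GATA factors read, and no match overlapped another.
Hba-a1: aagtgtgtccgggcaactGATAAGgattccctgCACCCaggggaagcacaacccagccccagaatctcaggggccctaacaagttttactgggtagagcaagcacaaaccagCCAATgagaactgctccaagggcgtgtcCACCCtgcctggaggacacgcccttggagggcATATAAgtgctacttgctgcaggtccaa
Hba-a2: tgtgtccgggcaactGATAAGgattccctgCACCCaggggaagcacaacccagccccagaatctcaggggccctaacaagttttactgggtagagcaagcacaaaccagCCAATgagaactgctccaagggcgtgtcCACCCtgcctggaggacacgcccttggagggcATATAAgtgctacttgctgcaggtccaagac
Hbb-bs: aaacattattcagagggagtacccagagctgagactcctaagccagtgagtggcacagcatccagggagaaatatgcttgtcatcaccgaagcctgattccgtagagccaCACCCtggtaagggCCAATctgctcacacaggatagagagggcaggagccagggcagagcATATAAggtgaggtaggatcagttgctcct

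All matches lay on the strand of the gene. Counted from the start site, the ATATAA match of Hba-a1 began at base -28, the nearer CACCC match at -60, the CCAAT match at -88, and the GATAAG match at -182. Hbb-bs held ATATAA at -30, CCAAT at -76, and CACCC at -90, and no GATAAG in this window. Among all 32851 promoters of the table, windows of the same length held CCAAT in 29.3%, CACCC in 45.5%, ATATAA in 7.3%, and GATAAG in 5.13% of cases. The 300-base start regions of Hba-a1 and Hba-a2 shared an identical run of 297 bases, whereas the longest run shared by Hba-a1 and Hbb-bs was 9 bases. The transcripts were also alike. Of 640 windows of 60 bases in the Hba-a1 transcript, 419 (65.5%) were found unchanged in Hba-a2, and 371 of 569 (65.2%) in Hbb-bs were found in its neighbor Hbb-bt. Reads from such stretches cannot be assigned to 1 copy, and the division of FPKM between the α-globin entries, and between the β-globin entries, is uncertain.

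FPKM is the number of fragments per kilobase of transcript, scaled for library size, and can be compared between genes within a library. The authors analysed each comparison separately, and the coordinates below are those of their mm9 entries. In the comparison of AngII No AAA with Saline, all 4 hemoglobin entries were listed, and all were higher in the AngII No AAA library. In the comparison of AngII AAA with Saline, 3 of the 4 were listed, again all higher in the AngII library. No hemoglobin entry was among the 600 listed between the AngII libraries. The folds over Saline lay between 3.65 and 10.3.

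The α-globin entry at chr11:32183671-32184493 (called the upstream entry here) was at 7.76 FPKM in Saline and at 59.99 FPKM in AngII AAA, a fold of 7.73 (log2 2.95). Against Saline in the other comparison it had 59.6 FPKM in AngII No AAA and 8.48 FPKM in Saline, a fold of 7.02 (log2 2.81). Both AngII libraries were thus far above Saline and close to each other for this entry.

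The downstream α-globin entry, at chr11:32196488-32197310, was the more abundant of the pair in every library. Its level was 160.3 FPKM in AngII AAA and 15.5 FPKM in Saline, a fold of 10.3 (log2 3.37), the largest of any hemoglobin entry. In AngII No AAA it reached 130.4 FPKM, against 17.0 FPKM in Saline on the scale of that comparison, a fold of 7.69 (log2 2.94). The downstream entry exceeded the upstream entry 2 times in the Saline library, 2.19 times in the AngII No AAA library, and 2.67 times in the AngII AAA library, with the limit on shared reads given above.

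Hbb-b2, a β-globin gene at chr7:110961037-110962437, had the highest FPKM of the hemoglobin entries with a value in each library. Its level was 754 FPKM in AngII AAA and 118 FPKM in Saline, a fold of 6.40 (log2 2.68). In AngII No AAA it reached 850.2 FPKM, against 129 FPKM in Saline on the scale of that comparison, a fold of 6.599 (log2 2.72). Ranked by FPKM among the 564 entries listed for AngII No AAA vs. Saline, Hbb-b2 stood in place 4 in the AngII No AAA library and in place 18 in the Saline library. Among the 715 entries for AngII AAA vs. Saline it took place 9 for AngII AAA and place 11 for Saline.

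The second β-globin entry, Hbb-b1,Hbb-bs at chr7:110975036-110976443, was listed only for AngII No AAA vs. Saline. Its level was 333 FPKM in AngII No AAA and 91.2 FPKM in Saline, a fold of 3.65 (log2 1.87), the smallest of the 4. Its level in the AngII AAA library could not be read, because the authors' lists leave out any entry that did not pass their p-value or could not be tested by them. Hbb-b2 exceeded this entry 1.41 times in the Saline library and 2.56 times in the AngII No AAA library.

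A difference of over 4-fold was reached by 3 of the 3 entries for AngII AAA vs. Saline and by 3 of the 4 entries for AngII No AAA vs. Saline. Of all listed entries above 0 FPKM in both libraries, 63.7% were over 4-fold higher in AngII AAA than in Saline, 9.89% were over 4-fold higher in AngII No AAA than in Saline, and 31.5% were over 4-fold higher in AngII AAA than in AngII No AAA. Since these same differences placed the entries in the lists, nothing is read from that contrast. The median log2 of the hemoglobin entries was 2.95 for AngII AAA vs. Saline, where the median of all listed entries was 2.26, and 2.77 for AngII No AAA vs. Saline, where that median was 1.16.

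The levels of the chains were also set against each other. The FPKM of Hbb-b2 was 5.06 times the sum of the α-globin entries in the Saline library, 4.48 times in the AngII No AAA library, and 3.42 times in the AngII AAA library. These ratios take Hbb-b2 alone for β-globin, because Hbb-b1,Hbb-bs had no value for AngII AAA. The limit on shared reads given above holds for them too, and no balance of the chains is read from them. In Saline they also rest on low α-globin levels, and their difference between libraries was not tested. The sum of the 3 entries listed in both comparisons was 974 FPKM in the AngII AAA library against 141 FPKM in Saline, a fold of 6.90. For AngII No AAA it was 1040.2 FPKM against 154 FPKM, a fold of 6.74.

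The FPKM of a library differed between the authors' comparisons by a constant, and dividing by it gave every library the scale of the AngII AAA and Saline comparison. On this scale the upstream α-globin entry was at 59.99 FPKM in AngII AAA, 54.5 FPKM in AngII No AAA, and 7.76 FPKM in Saline. The downstream entry was at 160.3, 119, and 15.5 FPKM, and Hbb-b2 at 754, 778, and 118 FPKM, in the same order of libraries. Saline was lowest for each of these 3 entries, while the order of the AngII libraries differed between entries, with Hbb-b2 slightly higher in AngII No AAA. The Hbb-b1,Hbb-bs entry was at 304 FPKM in AngII No AAA and at 83.4 FPKM in Saline.

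**Figure D1:**
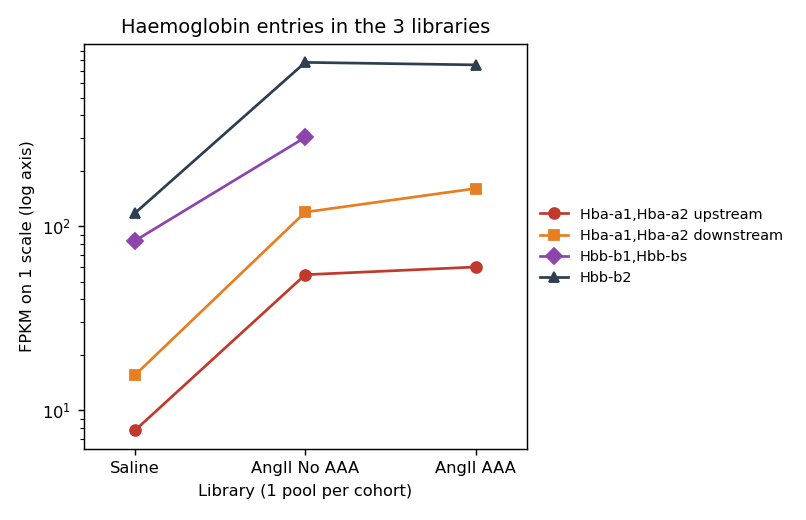
FPKM of the 4 hemoglobin entries (log axis) in the Saline, AngII No AAA, and AngII AAA libraries on the common scale, with 1 pooled library per cohort and no error bars. Both AngII libraries lie above Saline for every entry with a value, Hbb-b2 lies between 754 and 778 FPKM in them, and the Hbb-b1,Hbb-bs entry has no value for AngII AAA.

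Between the AngII libraries the 3 hemoglobin entries with a value in both were close. These had all passed the listing of both comparisons with Saline. Hbb-b1,Hbb-bs had no value for AngII AAA, so its ratio between the AngII libraries is not known. The log2 of AngII AAA over AngII No AAA was 0.14 for the upstream α-globin entry, 0.43 for the downstream entry, and -0.05 for Hbb-b2. For Hbb-b2 it was -0.17 with no scaling between comparisons and -0.09 on the scale of the comparison between the AngII libraries. Each of these scales lowers every entry by the same amount, so the sign for Hbb-b2 could not have changed. The smallest log2 that the authors list for AngII AAA vs. AngII No AAA, in either direction, was larger than all of these, at 1.201. That limit was not one of low abundance alone, because among the 31 entries listed there with at least 50 FPKM in both libraries the smallest was 1.32. A total of 233 entries were listed in both comparisons with Saline. Of these, 42 (18%), the 3 hemoglobin entries included, lay within 0.5 of equality on the log2 scale, and the median over all 233 was 0.85.

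The counting error behind these values could be approximated, because FPKM ratios of many entries fell on ratios of whole numbers. On that basis 1 fragment added 0.667 times as many FPKM in the AngII AAA library as in Saline, and 0.949 times as many in the AngII No AAA library as in Saline. These factors include the authors' scaling and are not ratios of total reads, whose range over libraries in the labels is narrower than the first of them. The smallest whole numbers that fit were 5, 37, and 58 for the upstream α-globin entry in Saline, AngII No AAA, and AngII AAA, and 10, 81, and 155 for the downstream entry. For Hbb-b2 they were 170, 1182, and 1631, although at such large numbers a match can arise by chance. If fragments were counted whole, the counts are these numbers or a common multiple of them, and a multiple would narrow the intervals. In Saline these numbers came to 0.590 per FPKM for both α-globin entries and to 1.32 per FPKM for Hbb-b2, and fragments shared between copies may have been counted in part, so that the intervals below are approximate.

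With exact 95% intervals on these numbers, which cover counting error only and neither animals nor library preparation, the fold over Saline of the upstream α-globin entry was 2.75 to 22.9 in AngII No AAA and 3.13 to 24.7 in AngII AAA. For the downstream entry the intervals were 3.97 to 16.6 and 5.47 to 22.0. For Hbb-b2 they were narrower, at 5.61 to 7.80 and 5.46 to 7.54. Since the entries were selected on these same differences, nothing is read from the intervals against 1. Within each entry the intervals of the AngII libraries overlapped. On the common scale, the ratio of AngII AAA to AngII No AAA itself was 1.10 (0.717 to 1.71) for the upstream entry. For Hbb-b2 it was 0.969 (0.899 to 1.05), and for the downstream entry 1.34 (1.02 to 1.78). The last interval lay just above 1, but its place depends on the scale. The log2 of that entry was 0.43 here, 0.38 on the scale of the comparison between the AngII libraries, and 0.30 with no scaling. No interval was computed for the other scales, and nothing is read from this one against 1.

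Other genes of red cells were read from a list of 44 erythroid genes. Of these, 13 were listed in the comparison of AngII No AAA with Saline and 7 in that of AngII AAA with Saline. All were higher in the AngII library, and none was listed between the AngII libraries. Of all listed entries, 63.5% were higher in AngII No AAA than in Saline, 84.6% were higher in AngII AAA than in Saline, and 79% were higher in AngII AAA than in AngII No AAA. These shares are the background for this and the following lists. The median log2 was 1.52 (1.03 to 1.76) for AngII No AAA and 2.10 (1.70 to 2.28) for AngII AAA. For AngII No AAA vs. Saline, the largest of these values was thus below that of the smallest hemoglobin entry. The 13 genes summed to 1522 FPKM in AngII No AAA against 522 FPKM in Saline, and the 7 genes to 1098 FPKM in AngII AAA against 248.7 FPKM in Saline. Because the genes and the scales differ, these sums cannot be compared between the AngII libraries. In bulk tissue, more cells of a type and more RNA per cell cannot be told apart.

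Alas2, the erythroid enzyme that starts heme synthesis, was the most abundant of the listed erythroid genes. On the common scale it was at 360.3 FPKM in AngII AAA, 233 FPKM in AngII No AAA, and 75.0 FPKM in Saline. Per kilobase, Alas2 exceeded the sum of the α-globin entries 3.22 times in Saline, 1.34 times in AngII No AAA, and 1.64 times in AngII AAA, whereas Hbb-b2 exceeded Alas2 1.57, 3.34, and 2.09 times. The globin levels carry the limit on shared reads given above, so these ratios do not show which transcript was the more abundant. Their difference between libraries was not tested. Fech, which inserts iron in the last step of heme synthesis, was at 129 FPKM in AngII No AAA against 56.6 FPKM in Saline (log2 1.19). Alas2 and Fech were the only members of the 14 genes of heme synthesis that were listed in any comparison.

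Genes of the red cell membrane were in the same direction. Slc4a1 (band 3, the anion exchanger) was at 41.0 FPKM in AngII AAA, 36.0 FPKM in AngII No AAA, and 12.6 FPKM in Saline. Epb4.1 (protein 4.1 of the membrane skeleton) was listed in AngII No AAA against Saline alone, with a log2 of 1.34 and no value for AngII AAA.

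Enzymes and transporters of red cells followed. Car2 (carbonic anhydrase 2) had a log2 of 1.18 in AngII No AAA and of 1.88 in AngII AAA, both against Saline. Bpgm, which makes the 2,3-bisphosphoglycerate that lowers oxygen affinity, had a log2 of 1.64 in AngII No AAA, and Slc25a37 (mitoferrin 1, which brings iron into mitochondria) one of 1.67. Genes linked to red cell maturation were listed there too, with a log2 of 1.03 for Bnip3l (clearance of mitochondria) and 1.06 for Mkrn1.

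Among the other listed members, Fam46c, Ube2l6, and Isg20 are not restricted to red cells, and Ube2l6 and Isg20 are also induced by interferon. Their log2 values were 1.56, 1.66, and 1.76 for AngII No AAA vs. Saline. For AngII AAA vs. Saline they were 1.99, 2.15, and 2.28. Without these genes all other listed members of the list were still higher in the AngII library.

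Levels between the AngII libraries were set beside those of hemoglobin for the 7 erythroid genes with values in every library, which had all passed the listing of both comparisons with Saline. All 7 were higher in AngII AAA than in AngII No AAA, with a median log2 of 0.52 and a lowest value of 0.19 (Slc4a1). The hemoglobin entries had a median of 0.14, and their highest value (0.43) lay within the range of the erythroid genes. The difference between these lists was not tested.

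**Figure D2:**
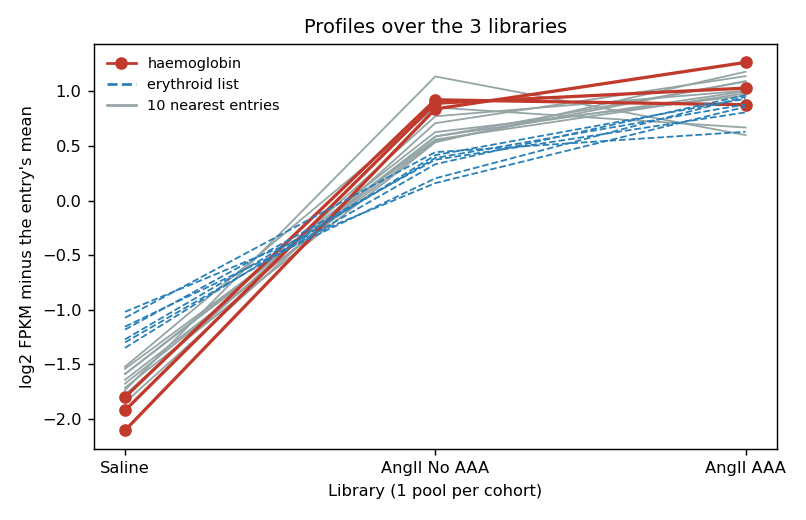
Log2 FPKM minus each entry's own mean over the Saline, AngII No AAA, and AngII AAA libraries (1 pooled library each), for the 3 hemoglobin entries with values in every library, the 7 erythroid genes, and the 10 entries nearest to Hbb-b2. All lines go up from Saline to AngII No AAA. From there to AngII AAA both α-globin lines and the erythroid lines go up, while Hbb-b2 differs by a log2 of -0.05.

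Proteins that take up or degrade hemoglobin and heme, or handle their iron, were read from a list of 33 genes. Against Saline, 5 were listed for AngII No AAA and 8 for AngII AAA, between the AngII libraries 7 were listed, and all were higher in the first-named library, as were most listed entries (63.5%, 84.6%, and 79% in the same order). Hmox1, the heme oxygenase that breaks heme down, was at 1050.0 FPKM in AngII AAA, 62.7 FPKM in AngII No AAA, and 11.1 FPKM in Saline on the common scale. Its log2 for AngII AAA over AngII No AAA was 4.07, against 0.14 for the median hemoglobin entry. Hmox1 was listed between these libraries, where the smallest log2 in either direction was 1.201, and hemoglobin was not. Nothing is therefore read from that contrast.

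Hp (haptoglobin, which binds free hemoglobin) was at 1292 FPKM in AngII AAA, 673 FPKM in AngII No AAA, and 119.5 FPKM in Saline, with a log2 of 0.94 between the AngII libraries. Slc40a1 (ferroportin, the iron exporter) was at 17.0, 2.66, and 1.55 FPKM, respectively. Slc11a1 (an iron and manganese transporter of phagosomes) was at 47.5, 6.50, and 2.09 FPKM. Lcn2 (which binds iron-loaded siderophores) was at 187, 63.2, and 6.66 FPKM. The log2 of Hp, which was not listed between the AngII libraries, was larger than that of any hemoglobin entry (0.43 at most). Slc40a1, Slc11a1, and Lcn2 were listed there, where the smallest log2 in either direction was 1.201. A larger log2 than that of hemoglobin was therefore fixed for them by the listing, and nothing is read from it. Slc11a1 and Lcn2 are also genes of macrophages or neutrophils.

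Of 5 other globin genes, only Mb (myoglobin, the oxygen store of muscle) was listed. It was lower in AngII No AAA (32.8 FPKM) than in Saline (221 FPKM), a log2 of -2.75. Mb is also in the list of 20 skeletal muscle genes, of which 16 were lower in AngII No AAA than in Saline and 8 lower in AngII AAA than in Saline. The 16 genes summed to 247 FPKM in AngII No AAA against 1198 FPKM in Saline, and the 8 genes to 91.1 FPKM in AngII AAA against 418 FPKM in Saline. Skeletal muscle RNA and hemoglobin RNA thus differed from Saline in opposite directions, and the part of tissue make-up in the hemoglobin values was not tested.

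Markers of other cells of blood were set beside hemoglobin, against the same background of 84.6% higher for AngII AAA over Saline, 63.5% for AngII No AAA over Saline, and 79% between the AngII libraries. Of 22 platelet genes, 10 were higher in AngII AAA than in Saline, while for AngII No AAA vs. Saline 1 was higher (Thbs1, log2 2.53) and 3 were lower (Nrgn, Ppbp, and Tubb1, log2 -1.72, -1.44, and -1.31). Pf4, a platelet chemokine, was at 1018 FPKM in AngII AAA, 59.7 FPKM in AngII No AAA, and 49.0 FPKM in Saline. The 10 platelet genes listed for AngII AAA vs. Saline summed to 1876 FPKM in AngII AAA against 171 FPKM in Saline. The 4 listed for AngII No AAA vs. Saline summed to 106 FPKM against 91.1 FPKM, with Thbs1 alone at 80.2 FPKM against 13.9 FPKM. In the AngII No AAA library hemoglobin was thus high relative to Saline, while the listed platelet genes went both ways.

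Of 28 neutrophil genes, 12 were higher in AngII AAA than in Saline and 1 (Lcn2) was higher in AngII No AAA than in Saline. For AngII AAA vs. AngII No AAA, 14 neutrophil genes were higher, Stfa2l1 being listed at 0 in AngII No AAA, and so were 13 platelet genes. Of 23 genes of monocytes and macrophages, 16 were higher in AngII No AAA and 21 in AngII AAA, both against Saline, and 16 were higher in AngII AAA than in AngII No AAA. The listed neutrophil genes summed to 1539 FPKM in AngII AAA against 67.5 FPKM in Saline. Markers of white cells and platelets were thus listed between the AngII libraries, where no hemoglobin entry was. The share of all measured genes that passed this listing is not known, and nothing is read from that contrast.

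**Figure D3:**
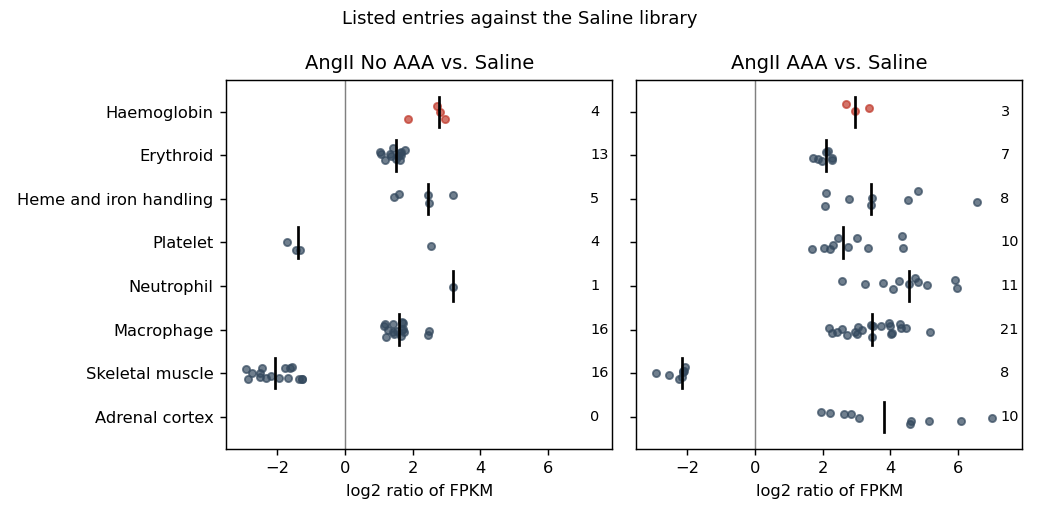
Log2 ratio of FPKM for the listed hemoglobin entries and the listed members of 7 gene lists, AngII No AAA vs. Saline on the left and AngII AAA vs. Saline on the right. Each point is 1 entry, the bar is the median, and the number at the right counts the points, with Stfa2l1 left out because it is listed at 0 in the Saline library. Hemoglobin lies to the right of 0 in both panels, at medians of 2.77 and 2.95.

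Genes of the aortic wall and of the neighboring adrenal gland were also read. Of 15 adrenal cortex genes, 11 were higher in AngII AAA than in AngII No AAA and 10 higher than in Saline, and none was listed between AngII No AAA and Saline. Of 18 smooth muscle genes, 7 were lower in AngII AAA than in AngII No AAA and 3 lower than in Saline. Emcn was the only one of 15 endothelial genes to be listed, with a log2 of 1.63 for AngII AAA vs. Saline. The 11 adrenal genes summed to 583 FPKM in AngII AAA against 47.8 FPKM in AngII No AAA. Adrenal and smooth muscle genes thus differed with the cohorts, and their part in the hemoglobin levels was not tested.

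**Figure D4:**
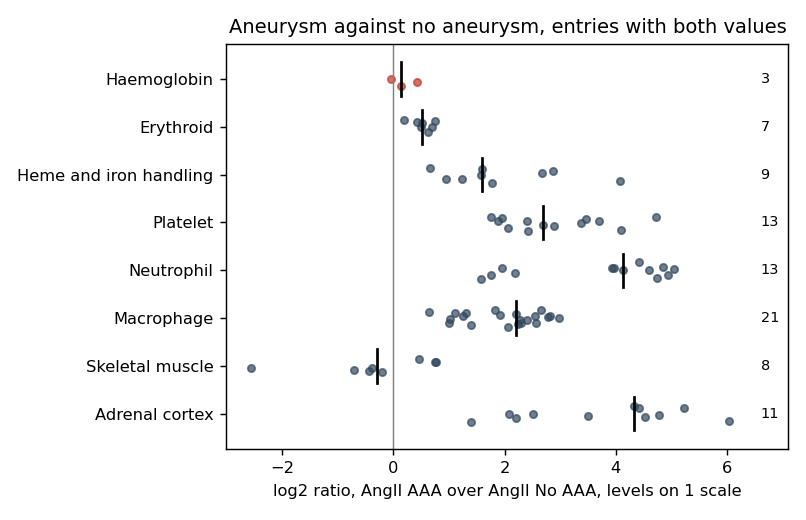
Log2 of AngII AAA over AngII No AAA on the common scale, for entries of each list with a value in both libraries (1 pooled library each). Points are entries, bars are medians, and the numbers at the right count the points, without Stfa2l1, which is listed at 0 in AngII No AAA. Hemoglobin entries lie between -0.05 and 0.43 and the erythroid genes at 0.19 or more, while the median of the platelet genes is 2.70. The platelet, neutrophil, and adrenal points are all entries listed between these libraries, where the smallest log2 in either direction was 1.201. No hemoglobin or erythroid entry was listed there. The distance of those points from 0 was set by the listing, and nothing is read from the contrast.

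The entries whose profile over the 3 libraries was most like that of Hbb-b2 were found among 539 entries for a single gene, by the Euclidean distance between log2 FPKM values centered on each entry's mean. The upstream α-globin entry lay at a distance of 0.197 and the downstream entry at 0.50. The 10 nearest entries lay at distances from 0.20 to 0.50 and included Ifi205, Cxcl14, Esm1, Col5a2, Rsad2, Loxl2, Hgf, Cenpa, and Akr1b8. None of them is in the erythroid list. Ifi205 and Rsad2 are genes induced by interferon, and Col5a2 and Loxl2 encode a fibrillar collagen chain and an enzyme that cross-links collagen. Over 3 libraries many profiles are alike, and nothing about shared control follows from the distance.

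Ifi205, the nearest, was at 11.2 FPKM in AngII AAA, 9.51 FPKM in AngII No AAA, and 1.62 FPKM in Saline. Col5a2 was at 80.7, 64.0, and 13.8 FPKM in the same order. Esm1 was higher in AngII No AAA than in AngII AAA, as Hbb-b2 was, with 10.6 against 7.34 FPKM.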

How the data were processed

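RNA-seq was analysed for 3 suprarenal libraries, 1 pool per cohort. The submitters' processing notes name FastQC, HISAT2, Cufflinks, Cuffdiff, and the mm9 build, and the versions are not given in the sources used here. The libraries were depleted of ribosomal RNA and sequenced as single reads. The authors deposited FPKM values for each of 3 comparisons, keeping entries with an unadjusted p-value under 0.05. Their own fold changes, test statistics, p-values, and adjusted p-values were in the same tables and were not used.

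Log2 ratios were recomputed from FPKM with no pseudocount. Entries at 0 FPKM were left out of medians. A library's FPKM differed between comparisons by a constant (0.968 for AngII AAA over 385 shared entries, 0.914 for AngII No AAA over 102, and 1.09 for Saline over 227). For the common scale, the constants of AngII AAA and Saline were divided out. That of AngII No AAA was used only for the second scale for AngII AAA over AngII No AAA. AngII No AAA levels came from the comparison with AngII AAA where listed there, and otherwise from that with Saline. With 1 library per cohort, no test was run. Total reads are stated only as a range over libraries, not for each, and the relative worth of a fragment, which includes the authors' scaling, was taken from whole-number ratios of FPKM (411 of 677, 254 of 546, and 307 of 584 entries for AngII AAA vs. Saline, AngII No AAA vs. Saline, and AngII AAA vs. AngII No AAA, within a relative tolerance of 1.2e-05 and with a second number of at most 60). The value was itself chosen for giving the most such matches, and the share of entries that would match by chance was not computed. Among multiples of the value found, the one whose pairs held no excess of a common divisor was kept. Intervals are exact binomial intervals transformed to ratios.

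The hemoglobin members and the gene lists were chosen with earlier results of these data known. The whole-number step, the older gene symbols used to count list members, the second scale for AngII AAA over AngII No AAA, and the mean-profile alternative were chosen after seeing the data. Named were all hemoglobin entries, all listed erythroid, heme synthesis, and other globin genes, up to 4 members of each other list with the largest ratios in a comparison (with Lmod1 as the tissue marker), and the 10 entries nearest to Hbb-b2, except that some of these genes are not reported here by name. Promoters came from RefSeq (GRCm38.p6) and transcripts from GENCODE M21, and no coordinate was converted between builds. Calculations were tested on simulated data. Python 3.11.15, pandas 2.3.3, numpy 2.4.6, scipy 1.17.1, and matplotlib 3.10.9 were used.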

Additional observations from a re-analysis of the deposited data

Results flagged for a closer look

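The platelet genes Nrgn and Ppbp stood on opposite sides of Saline in the AngII libraries, where every hemoglobin entry listed in both comparisons with Saline was on the same side. Nrgn had a log2 of 2.03 for AngII AAA vs. Saline and of -1.72 for AngII No AAA vs. Saline. Ppbp had a log2 of 3.34 and of -1.44, respectively. Thbs1, the other platelet gene listed in both comparisons, was above Saline in each, with a log2 of 4.33 and of 2.53. Both comparisons share the Saline library, each cohort had 1 library, and the difference was not tested.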

How the results depend on the processing

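Hemoglobin entries kept their direction over Saline under each alternative run. Of these alternatives, only subtracting the median of all listed entries could have changed it. A pseudocount or a constant shared by both libraries leaves the direction of a ratio unchanged. With a pseudocount of 1 FPKM the median log2 over Saline was 2.80 in AngII AAA and 2.69 in AngII No AAA, and after subtracting the median of all listed entries it was 0.69 and 1.61. On 1 scale across comparisons both medians were as reported. The median for AngII AAA over AngII No AAA moved from 0.14 to 0.0104 with no scaling and to 0.0934 on the scale of the authors' comparison of these libraries. Entries over 4-fold higher numbered 184 between the AngII libraries, 54 in AngII No AAA over Saline, and 431 in AngII AAA over Saline. At 2-fold the first of these counts was 469 and the second 331, and at 8-fold 49, 5, and 165. Over 50 alternative list medians none changed sign, and the largest shift was 0.58, with the pseudocount. The pseudocount cannot change the direction of an entry, and requiring at least 1 FPKM in the higher library moved no median. The unchanged signs are therefore no check on direction. Of the 10 entries nearest to Hbb-b2, 7 were also nearest to the mean hemoglobin profile. AngII AAA vs. AngII No AAA gave no hemoglobin value within its own list, and AngII No AAA levels of hemoglobin came only from the comparison with Saline, so the alternatives planned for them could not be run. No paired analysis was possible because each cohort had 1 library, and no replicate could be left out. Counting error was widest for α-globin, from the low numbers in Saline.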
